A study of Phalaenopsis amabilis with 15 samples.

Results

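PSBS, ELIP1 and ZEP are nuclear genes whose proteins guard the photosynthetic membranes of chloroplasts against excess light, and they are 3 of the 21144 loci in a table of RNA sequencing counts from moth orchid leaves. They were picked by locus ID, with results of these same libraries already known, so their levels across the groups are given as a description and carry no p-value. The plants were Phalaenopsis amabilis, and the uppermost young leaves were taken in 5 groups of 3 libraries, each library made from 3 pooled plants. The control leaves came at day 0 from plants with 12 h of light, days of 28 °C and nights of 25 °C. Plants then had days of 25 °C and nights of 18 °C, with either 16 h of light (LD) or 8 h (SD), and leaves were taken after 20 days (LD_20d and SD_20d) and after 40 days (LD_40d and SD_40d). All 4 treated groups therefore also differ from the control in temperature and in time, and those changes cannot be told apart from photoperiod in any comparison with the control. The loci and their names are those of a related species, P. equestris, with the best protein match that the deposited table lists.

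When light exceeds what photosynthesis can use, plants release the surplus as heat. PSBS is a membrane protein of photosystem II that senses the acid inside of the thylakoid and switches this quenching on. The xanthophyll cycle sets the pigments that quench: violaxanthin de-epoxidase (VDE) makes zeaxanthin in bright light, and zeaxanthin epoxidase (ZEP) turns it back to violaxanthin in dim light and darkness. Violaxanthin is also a precursor of abscisic acid. Early light-induced proteins (ELIPs) are relatives of the light-harvesting antenna proteins that appear in plants under light stress, in cold and while chloroplasts develop, and are thought to hold free chlorophyll safely.

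Library totals ran from 11246777 to 14637388 counts, and 16700 loci, the 3 among them, passed the filter on low counts. Along the first principal component (44.6% of the variance) SD_40d replicate 1 lay at -16.9, apart from replicates 2 and 3 at -77.6 and -89.3. LD_40d replicate 3 lay at -18.6, apart from replicates 1 and 2 at -59.8 and -50.3, and LD_20d replicate 2 lay at 64.6, past SD_20d replicate 1 at 60.7. Of 20 leaf marker loci (such as antenna proteins and the Rubisco small subunit), 19 were tested and 1 had no count, and their summed CPM (counts scaled to library size, with TMM factors) was 53400 to 67500 in the control, 12600 to 21100 in LD_20d, 19400 to 24800 in SD_20d, 20500 to 27300 in LD_40d and 31800 to 34600 in SD_40d. Of 14 markers of dividing tissue, 11 were tested and 1 had no count in any library, and their summed CPM was 409 to 585 in SD_20d, 144 to 436 in LD_20d and 126 to 168 in the other 3 groups. Summed CPM of 6 guard cell markers (5 tested) was 75.2 to 311, and of 9 vascular markers (8 tested) 73.3 to 174. The 2 flower organ markers, both matched to AGAMOUS, reached 0.516 at most. The part of these markers in the differences below was not tested. In bulk leaves, fewer cells of a type and less RNA per cell cannot be told apart. The labels do not say at what hour leaves were cut, so for a transcript that cycles over the day, a new level cannot be told apart from a new timing.

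**Figure D1:**
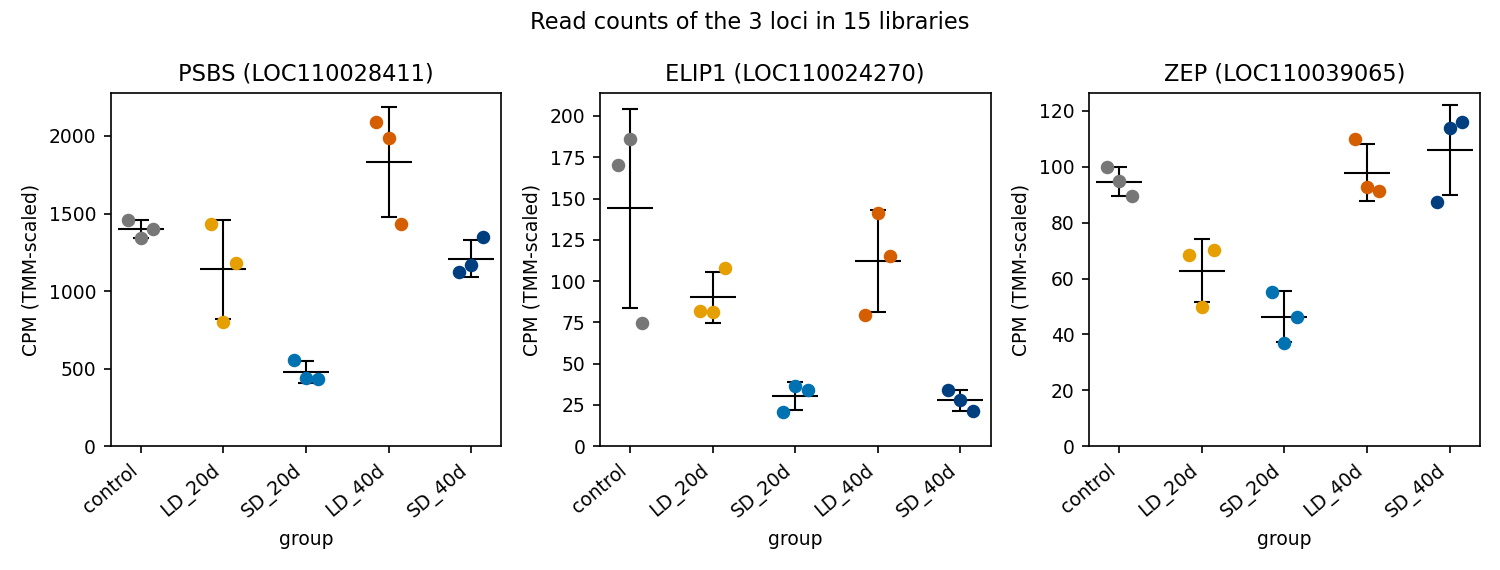
TMM-scaled CPM of PSBS, ELIP1 and ZEP (vertical axes, each from 0) in the control, LD_20d, SD_20d, LD_40d and SD_40d groups. Points are libraries in the order of replicates 1 to 3, and bars are the mean ± SD of 3 libraries. PSBS is lowest in SD_20d (436 to 559 CPM), ELIP1 is low in SD_20d and SD_40d (20.8 to 36.5 CPM), and ZEP is low at 20 days in both photoperiods (37.0 to 70.1 CPM).

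PSBS (LOC110028411, scaffold NW_018164444.1, 60792617 to 60794843, minus strand) was among the most abundant transcripts of these leaves. Per length, its mean over 15 libraries was 994 FPKM, a value the authors deposited that is scaled to gene length and library total, and this placed it at rank 52 of 21144 loci. In the control it stood at 1460, 1340 and 1400 CPM in replicates 1, 2 and 3, a narrow group with an SD of 57.1. LD_20d held 1430, 801 and 1180 CPM, and SD_20d held 559, 440 and 436 CPM. Every SD_20d library was below every other library of the series, and LD_20d replicate 2 was the lowest outside that group. At 40 days LD_40d held 2090, 1990 and 1430 CPM and SD_40d held 1120, 1170 and 1350 CPM. The photoperiods again did not overlap, although LD_40d replicate 3 came close to SD_40d replicate 3.

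In fitted terms PSBS was lower under SD than under LD by a log2 change of -1.25 ± 0.20 (standard error) at 20 days and -0.59 ± 0.20 at 40 days. The group means were 479 against 1140 CPM at 20 days (LD 2.37 times SD) and 1210 against 1830 CPM at 40 days (LD 1.51 times SD). From 20 to 40 days PSBS went from 479 ± 69.6 to 1210 ± 121 CPM under SD (log2 change 1.34 ± 0.21), with no overlap, and from 1140 ± 317 to 1830 ± 355 CPM under LD (0.69 ± 0.20). Against the control, SD_20d was lower by a log2 change of -1.55 ± 0.21. The other treated groups differed from the control by -0.30 ± 0.20 (LD_20d), 0.39 ± 0.20 (LD_40d) and -0.20 ± 0.20 (SD_40d), and each overlapped it. In order of mean CPM, LD_40d stood above the control, SD_40d, LD_20d and SD_20d, and the step from LD_20d to SD_20d was the only one between neighbours without overlap. The difference at 40 days was -0.54 without SD_40d replicate 1 and -0.75 without LD_40d replicate 3, the libraries that stood apart at that age.

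ELIP1 (LOC110024270, scaffold NW_018164693.1, 872214 to 873397, minus strand) separated the photoperiods at both ages, while its ages overlapped. Its mean was 90.8 FPKM, above 94.1% of loci. LD_20d held 81.7, 81.0 and 108 CPM in replicates 1, 2 and 3, and LD_40d held 79.3, 141 and 115 CPM. SD_20d held 20.8, 36.5 and 34.0 CPM, and SD_40d held 34.1, 27.8 and 21.2 CPM. All 6 SD libraries were thus below all 6 LD libraries. The control held 170, 186 and 74.7 CPM, so replicate 3 of the control was less than the lowest LD library while replicates 1 and 2 were the highest of all 15.

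The fitted difference of SD from LD in ELIP1 was -1.57 ± 0.33 at 20 days and -2.01 ± 0.33 at 40 days, with LD at 2.97 and 4.03 times SD in mean CPM. Between ages ELIP1 differed by 0.31 ± 0.32 under LD and by -0.13 ± 0.33 under SD, both about the size of the standard error or smaller, and the libraries overlapped. Against the control, the SD groups differed by -2.24 ± 0.34 at 20 days and -2.37 ± 0.34 at 40 days, without overlap, and the LD groups by -0.67 ± 0.32 and -0.37 ± 0.32, with overlap. ELIP1 varied more between replicates than the other loci: its SD within groups was 0.46 on the log2 CPM scale, against 0.26 for PSBS and 0.22 for ZEP. The order of group means was control, LD_40d, LD_20d, SD_20d and SD_40d, and again the step from LD_20d to SD_20d was the only one between neighbours without overlap. The difference at 40 days was -2.19 without SD_40d replicate 1 and -1.99 without LD_40d replicate 3.

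ZEP (LOC110039065, scaffold NW_018252868.1, 66670 to 77374, minus strand) separated the ages in both photoperiods and overlapped between photoperiods. The control held 99.8, 94.8 and 89.5 CPM. At 20 days LD_20d held 68.4, 49.9 and 70.1 CPM and SD_20d held 55.3, 37.0 and 46.4 CPM. These groups overlapped with each other, and every one of their libraries was below every control library. At 40 days LD_40d held 110, 92.8 and 91.4 CPM and SD_40d held 87.4, 114 and 116 CPM, which overlapped with each other and with the control. SD minus LD was -0.44 ± 0.17 at 20 days and 0.11 ± 0.16 at 40 days (0.23 without SD_40d replicate 1 and 0.06 without LD_40d replicate 3). From 20 to 40 days ZEP was higher by 0.64 ± 0.17 under LD and by 1.19 ± 0.17 under SD, in both without overlap. Against the control it was lower by -0.59 ± 0.17 (LD_20d) and -1.03 ± 0.17 (SD_20d), and at 40 days the differences were 0.05 ± 0.16 (LD_40d) and 0.16 ± 0.16 (SD_40d). In order of mean CPM, SD_40d, LD_40d and the control overlapped, as did LD_20d and SD_20d, and the break lay between the control and LD_20d.

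**Figure D2:**
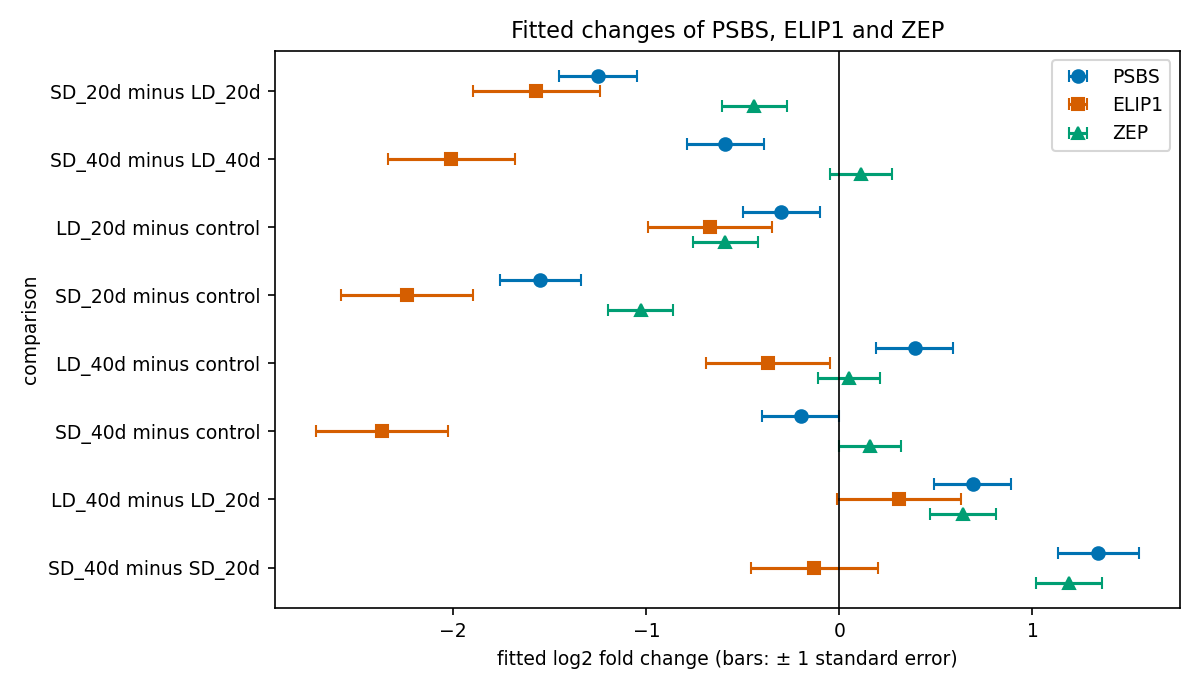
Fitted log2 fold change (horizontal axis, bars ± 1 standard error) of PSBS, ELIP1 and ZEP in 8 comparisons of group means from one fit to 15 libraries. ELIP1 lies between -1.57 and -2.37 wherever an SD group is set against LD or the control, PSBS and ZEP lie at 1.34 and 1.19 in SD_40d minus SD_20d, and ZEP lies at 0.05 and 0.16 in the 40-day groups minus the control.

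Set side by side, the loci had 3 patterns: ELIP1 split by photoperiod, ZEP by age, and PSBS by photoperiod at both ages and by age under SD. The root-mean-square difference of centred log2 CPM over 15 libraries was 0.36 between PSBS and ZEP, 0.87 between PSBS and ELIP1 and 1.04 between ELIP1 and ZEP. Non-overlapping groups were common in this table. PSBS and ELIP1 were among the 27.3% of tested loci without overlap between the photoperiods at 20 days and the 15.1% at 40 days. ZEP was among the 30.8% without overlap between ages under LD, and PSBS and ZEP among the 53.3% under SD. Against the control, all 3 were among the 53.6% without overlap in SD_20d, ZEP among the 41.5% in LD_20d and ELIP1 among the 46.7% in SD_40d, while none was among the 42.9% in LD_40d. Summed leaf markers were lower in every treated library than in the control, also at 40 days, where PSBS and ZEP overlapped the control. Those contrasts were known when the loci were chosen, so nothing is read from these shares. The change of the photoperiod difference between ages (SD minus LD at 40 days, less that at 20 days) was 0.65 ± 0.29 for PSBS, 0.55 ± 0.23 for ZEP and -0.44 ± 0.46 for ELIP1. In that comparison 0 of 16700 loci (0%) had an adjusted p under 0.05 in edgeR, the threshold for a call here.

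The table holds 1 locus described as PSBS, 1 as an ELIP, 1 as VDE and 4 with a description of ZEP. The second ZEP locus (LOC110037253, scaffold NW_018235983.1, 1179 to 11266, minus strand) ran alongside ZEP in both level and pattern. Its mean was 31.5 FPKM against 32.5 FPKM for ZEP, and out of 10246 candidate loci it had the smallest distance to ZEP (0.11 on the log2 scale). How reads were split between such similar loci is not given in the sources used here, so a value for either alone is uncertain. The second ZEP locus was named for its description and was tested. With so near a profile and an unknown split of reads, its p-values are not separate support for the pattern of ZEP. This second locus fell from the control to LD_20d (-0.82 ± 0.15, adjusted p = 0.00197) and to SD_20d (-1.03 ± 0.15, adjusted p = 3.1e-04). It rose from 20 to 40 days under SD (1.10 ± 0.15, adjusted p = 7.3e-04) and LD (0.81 ± 0.15, adjusted p = 0.026). The last of these calls was lost without LD_20d replicate 2 or 3 or without LD_40d replicate 1, where its adjusted p reached 0.12. That call was also lost when only the LD groups were fitted. SD minus LD was -0.21 ± 0.15 at 20 days and 0.07 ± 0.15 at 40 days (adjusted p = 0.526 and 0.855). The short locus LOC110019108 had 6 counts in the control and 53 in SD_40d. LOC110035172, whose other match is monooxygenase 1 rather than ZEP, had 80 counts in the control, 2 and 4 at 20 days (LD and SD) and 7 and 4 at 40 days. These loci passed the filter on low counts only through the group where each was high (SD_40d and the control), so their tests against that group are not read.

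VDE (LOC110038543, scaffold NW_018251005.1, 48220 to 82136, plus strand), the enzyme that runs the cycle in the other direction from ZEP, was not among the chosen loci and was tested. Its CPM was 102, 70.7 and 100 in LD_20d and 58.2, 51.1 and 49.6 in SD_20d, without overlap. At 40 days it was 136, 138 and 98.3 in LD_40d and 86.6, 91.6 and 86.1 in SD_40d, again without overlap. Such separation was seen in 27.3% of all tested loci at 20 days and 15.1% at 40 days. VDE fell under SD at 20 days (-0.78 ± 0.16, adjusted p = 0.0454), and at 40 days it differed by -0.49 ± 0.16 (adjusted p = 0.174). The call at 20 days was lost without LD_20d replicate 1 or 3 and without any SD_20d replicate, where its adjusted p reached 0.236. It was also lost with a replicate block and when only the compared groups were fitted. VDE rose from 20 to 40 days under SD (0.73 ± 0.16, adjusted p = 0.0039) and from the control to LD_40d (0.88 ± 0.16, adjusted p = 0.00164), calls that held without any single library. The control held 67.1, 77.0 and 57.4 CPM.

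The FPKM of VDE divided by the summed FPKM of ZEP and the second ZEP locus gives the balance of the transcripts of the cycle per length. In replicates 1, 2 and 3 this ratio was 0.378, 0.46 and 0.37 in the control, 0.933, 0.877 and 0.863 in LD_20d and 0.615, 0.733 and 0.62 in SD_20d. It was 0.742, 0.842 and 0.615 in LD_40d and 0.586, 0.475 and 0.432 in SD_40d. The ratio was lower under SD than under LD in every library at each age, although SD_40d replicate 1 came close to LD_40d replicate 3. All control libraries were below all libraries of LD_20d, SD_20d and LD_40d, while SD_40d replicate 3 was below control replicate 2. The ratio contains ZEP and is a description.

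**Figure D3:**
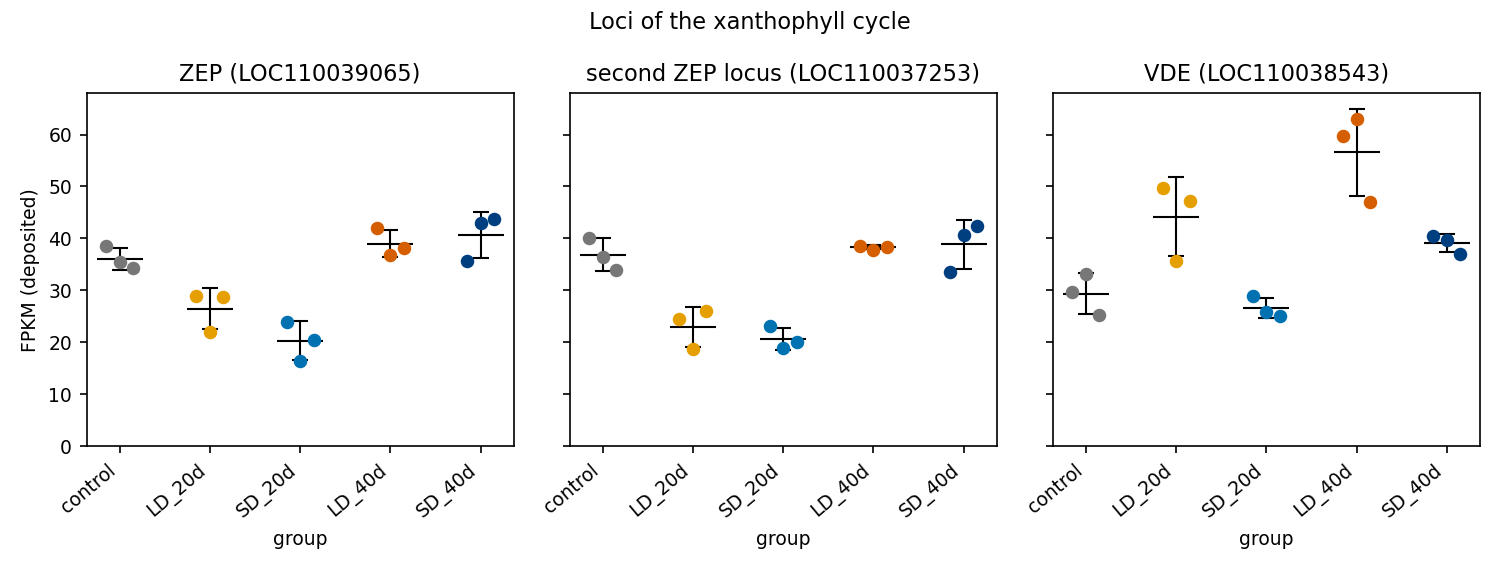
Deposited FPKM (shared vertical axis from 0) of ZEP, the second ZEP locus and VDE in the 5 groups. Points are libraries and bars the mean ± SD of 3. Both ZEP loci are lower at 20 days than in the control and at 40 days, while VDE is higher in LD_20d and LD_40d (means 44.2 and 56.6 FPKM) than in SD_20d and SD_40d (26.6 and 39.1 FPKM).

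Beyond the 3 chosen loci, 95 other loci were matched by their descriptions to photoprotection in 6 roles, and 86 of them were tested. At 20 days 2 of the 86 fell under SD, 0 rose and 84 were not called. That is 2.33%, against 0.862% of all tested loci (0.695% down). The median log2 change of the list was -0.26, against 0.02 over all tested loci, and 70 of 86 values were negative. At 40 days 0 of the 86 were called with edgeR, against 0.461% of all tested loci (0.299% down). DESeq2 called 4 (4.65%), all lower, where it called 3.68% of all loci. At an unadjusted p under 0.05, 25 of the list passed (29.1%, against 15.5% of all tested loci). The median was -0.22 against -0.02, with 66 of 86 negative. The count at 20 days was 14 with DESeq2 (16.3%, against 4.94% of all loci in that fit). It was 0 without LD_20d replicate 1 or 3 or SD_20d replicate 2 or 3, 1 without SD_20d replicate 1 and 19 without LD_20d replicate 2 (22.1% against 5.23%). At 40 days the count was 3 without LD_40d replicate 3 (3.49% against 0.727%). It was 6 without SD_40d replicate 1, a smaller share than that of all loci (6.98% against 12%).

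The 2 calls at 20 days were VDE and the prolycopene isomerase CRTSO (LOC110030368), which shapes lycopene before it is made into cyclic carotenoids. CRTSO held 50.8, 36.7 and 44.8 CPM in LD_20d and 23.0, 18.8 and 16.6 CPM in SD_20d, and it fell by 1.18 ± 0.21 on the log2 scale (adjusted p = 0.0256). This call was lost without LD_20d replicate 1 or 3 or SD_20d replicate 2 or 3, where its adjusted p reached 0.152. At 40 days CRTSO differed by -0.79 ± 0.21 (adjusted p = 0.111). The remaining 18 tested carotenoid genes were not called at 20 days. LUT1 (LOC110030448), a hydroxylase that makes lutein, had the smallest p of its role at 40 days (-0.58 ± 0.15, adjusted p = 0.0994) and was called without SD_40d replicate 1 and with DESeq2.

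Among the 8 other ELIP-related loci, small membrane proteins that share a chlorophyll-binding helix with the antennae, 0 were called between the photoperiods with edgeR, and DESeq2 called 2 at 20 days and 0 at 40 days. All 8 were negative at each age, with ranges of -0.79 to -0.18 and -0.62 to -0.22. Their medians were -0.45 and -0.37, against 0.02 and -0.02 over all tested loci. They come from the same libraries, and some share a match (LIL31 or STEP1), so they are not separate observations. The smallest p was that of OHP2 (LOC110025985), needed to assemble photosystem reaction centres in Arabidopsis, at 20 days (-0.79 ± 0.18, adjusted p = 0.064), which was called without LD_20d replicate 2 and with DESeq2. OHP2 held 49.1, 37.3 and 50 CPM in LD_20d and 29.1, 23.6 and 26.3 CPM in SD_20d. At 40 days it was that of the stress enhanced protein STEP1 LOC110036833 (-0.62 ± 0.18, adjusted p = 0.132). ELIP1 itself, at -1.57 and -2.01, lay below all 8 at both ages. ELIP1 was picked by locus ID and the 8 were found by words in their descriptions. Both choices were made with earlier results of these data known, so nothing is read from its place.

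No call was made between the photoperiods with edgeR in the other 4 roles. The electron flow role held 17 tested loci of cyclic and alternative electron flow and state transitions, with thylakoid-bending proteins and the ion antiporter KEA3. In it the kinase STN8 (LOC110027357), which phosphorylates photosystem II proteins, had the smallest p at 20 days (-0.63 ± 0.15, adjusted p = 0.0718) and the thylakoid-bending protein CUT1D (LOC110025039) at 40 days (-0.37 ± 0.11, adjusted p = 0.143). Among 21 loci of photosystem II repair, these were the protease FTSH1 (LOC110020107, -0.69 ± 0.16, adjusted p = 0.0657), which clears damaged reaction centre protein, and PSB28 (LOC110027140, -0.73 ± 0.19, adjusted p = 0.0994). Among 18 chloroplast antioxidant loci, they were the thioredoxin reductase NTRC (LOC110039543, -0.58 ± 0.15, adjusted p = 0.0792) and HPT1 (LOC110027871, -0.96 ± 0.20, adjusted p = 0.0585), an enzyme of tocopherol synthesis. STN8, FTSH1 and NTRC were called without LD_20d replicate 2, PSB28 without SD_40d replicate 1 and HPT1 without LD_40d replicate 3 or SD_40d replicate 1. Each of them was also called with DESeq2. In these roles DESeq2 called 3 electron flow, 5 repair, 2 antioxidant and 0 quenching loci at 20 days (4.94% of all loci). At 40 days it called 1 repair, 1 antioxidant, 0 electron flow and 0 quenching loci (3.68% of all loci). The quenching role held 2 other loci, both matched to SOQ1, which prevents a slow form of quenching. SOQ1 LOC110032219 differed by -0.49 ± 0.20 at 20 days and 0.42 ± 0.20 at 40 days (adjusted p = 0.226 and 0.329). At an unadjusted p under 0.05, 34 of the 86 loci passed at 20 days (39.5%, against 17.1% of all tested loci).

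**Figure D4:**
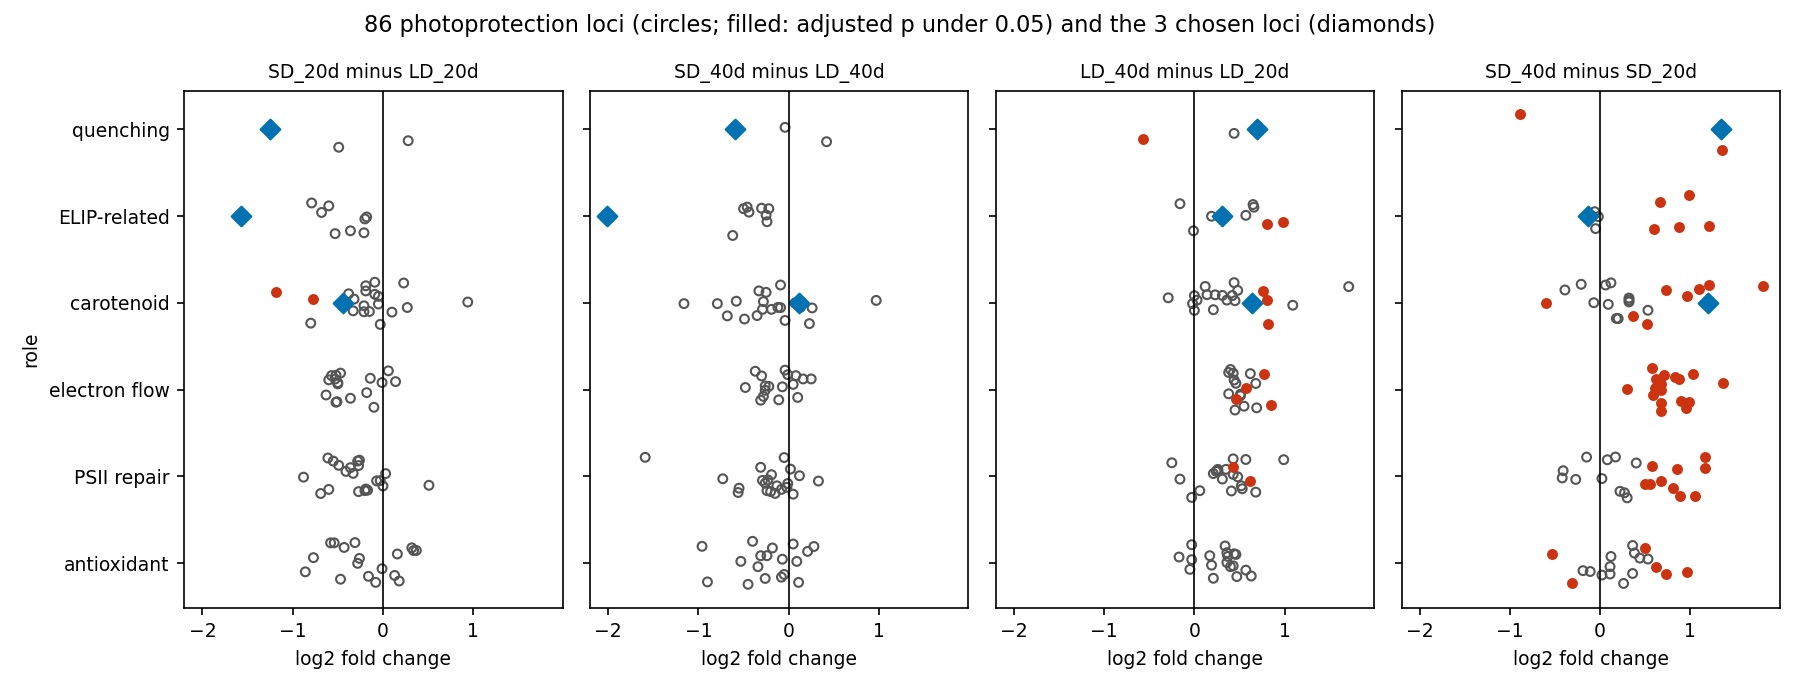
Log2 fold change (horizontal axis) of 86 photoprotection loci by role (vertical axis) between photoperiods at 20 and 40 days and between ages under LD and SD. Filled circles have an adjusted p under 0.05, open circles do not, and diamonds are PSBS, ELIP1 and ZEP, shown in their roles without a test. The 17 loci of the electron flow role, which includes thylakoid-bending proteins, are all filled and above 0 in SD_40d minus SD_20d. ELIP1 lies apart from its role in both photoperiod comparisons, but it was chosen with these results known.

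The comparison of ages asks how the same genes stood after a longer stay in each photoperiod. Under SD, 44 of the 86 loci rose from 20 to 40 days, 4 fell and 38 were not called, against 20.1% of all tested loci called up and 20.7% called down. The median was 0.50, against 0 over all tested loci. All 17 loci of the electron flow role, thylakoid-bending proteins included, rose. Among them were the kinase STN7, which drives state transitions (listed as STT7, LOC110028305, 0.95 ± 0.15, adjusted p = 8.6e-04) and PGR5 (LOC110027715, 1.36 ± 0.25, adjusted p = 0.0014), a part of cyclic electron flow. Without 1 library, 12 to 16 of the 17 were called. In photosystem II repair 10 of 21 rose and 0 fell, led by FTSH1, which went from 386 ± 62.4 to 861 ± 124 CPM (1.16 ± 0.16, adjusted p = 7.3e-04). Of the 8 ELIP-related loci 5 rose, including STEP1 LOC110026200 (1.21 ± 0.21, adjusted p = 1.0e-03), and 0 fell, and ELIP1 differed by -0.13 ± 0.33. The ELIP-related count was 3 without SD_20d replicate 2 or 3 or SD_40d replicate 3. Carotenoid genes numbered 7 up (LOC110019108, whose test is not read, included) and 1 down of 20, and the fall was LUT1 (-0.60 ± 0.15, adjusted p = 0.00647); 5 were called without SD_20d replicate 2 or SD_40d replicate 2. Antioxidant genes numbered 4 up and 2 down of 18, with NTRC among the rises (0.62 ± 0.15, adjusted p = 0.00508), and 3 were called without SD_20d replicate 2 or 3 or SD_40d replicate 2 and 4 without SD_40d replicate 3. The SOQ1 loci moved apart, LOC110032219 up (1.35 ± 0.20, adjusted p = 7.3e-04) and the other down. Between these groups dividing-tissue markers were higher in SD_20d (409 to 585 summed CPM) than in SD_40d (134 to 168), and leaf markers lower (19400 to 24800 against 31800 to 34600). Their part in these changes was not tested.

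Under LD, 11 loci rose from 20 to 40 days and 1 fell, 14% called against 5.16% of all tested loci (2.17% up and 2.99% down), with a median of 0.43 against 0.01. The rises included STEP1 LOC110026200 (0.98 ± 0.20, adjusted p = 0.0289), CUT1D (0.57 ± 0.11, adjusted p = 0.026) and the repair protease DEGP2 (LOC110029082, 0.43 ± 0.11, adjusted p = 0.0443), and the fall was SOQ1 LOC110018220 (-0.57 ± 0.14, adjusted p = 0.0426). These 4 calls were lost without LD_20d replicate 2 or 3 or LD_40d replicate 1 or 2. The count itself was 0 without LD_20d replicate 2 or 3 or LD_40d replicate 1, 1 without LD_40d replicate 2, 30 without LD_40d replicate 3 (34.9%, against 11.9% of all loci), 21 with DESeq2 (24.4% against 13.3%) and 0 when only the LD groups were fitted.

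Against the control, the list was lowest in SD_20d. There 41 of 86 loci fell and 5 rose (35.1% of all tested loci were called, 17.9% down), with a median of -0.38, while in LD_20d 22 fell and 4 rose (24% called among all tested loci, 12.6% down), with a median of -0.11. In LD_40d 20 rose and 10 fell (34.9%, against 27.5% of all tested loci, 13.9% up and 13.6% down), with a median of 0.14. In SD_40d 12 rose and 20 fell, with a median of 0.01. That is 37.2%, slightly below the 38.3% of all tested loci (18.8% up and 19.5% down). Medians over all tested loci lay between -0.05 and 0.02 in these comparisons. These comparisons share the same 3 control libraries. The falls include LOC110035172 in each comparison and the rises LOC110019108 in SD_40d, whose tests are not read. The lycopene cyclase LCYB (LOC110030862) fell in LD_20d (-1.61 ± 0.18, adjusted p = 5.7e-05) and SD_20d (-1.51 ± 0.18, adjusted p = 7.9e-05), as did CUT1A (LOC110032329, -1.38 ± 0.18 and -1.39 ± 0.18, adjusted p = 1.8e-04 and 1.3e-04) and the superoxide dismutase SODCP (LOC110025872, -0.75 ± 0.17 and -1.01 ± 0.17, adjusted p = 0.00551 and 6.0e-04). The repair factor PB27A (LOC110039110) fell in SD_20d by 1.84 ± 0.24 (adjusted p = 1.3e-04), and U603 (LOC110018087), a lumen protein of photosystem II repair, fell in LD_20d by 1.04 ± 0.19 (adjusted p = 0.00183). STEP1 fell in LD_20d (LOC110026200, -0.88 ± 0.20, adjusted p = 0.00689) and SD_20d (LOC110036833, -1.36 ± 0.18, adjusted p = 1.5e-04).

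At 40 days a locus described as PGR5-like protein 1A (LOC110028708), a part of cyclic electron flow, was higher than the control in LD_40d (1.58 ± 0.26, adjusted p = 8.5e-04) and SD_40d (1.83 ± 0.27, adjusted p = 2.5e-04). SOQ1 LOC110032219 also rose in LD_40d (1.02 ± 0.20, adjusted p = 0.0024) and SD_40d (1.44 ± 0.20, adjusted p = 2.0e-04). The protease FTSHB (LOC110037883, 0.57 ± 0.12, adjusted p = 0.00444) and the tocopherol and plastoquinone enzyme BQMT1 (LOC110024315, 0.68 ± 0.12, adjusted p = 0.0014) rose in LD_40d. LUT1 (-1.01 ± 0.15, adjusted p = 2.8e-04), PSB28 (-1.10 ± 0.19, adjusted p = 6.9e-04) and SODCP (-0.75 ± 0.17, adjusted p = 0.00349) fell in SD_40d. Smaller calls were a rise of STEP2 in LD_40d (LOC110022490, 0.80 ± 0.23, adjusted p = 0.0194), lost without control replicate 1 or 3 or LD_40d replicate 1, and a fall of LIL31 in SD_40d (LOC110028629, -0.52 ± 0.14, adjusted p = 0.0121), lost without SD_40d replicate 2 or 3. SOQ1 LOC110032219 in LD_20d (0.58 ± 0.20, adjusted p = 0.0495) lost its call without any of the 6 libraries, while SOQ1 LOC110018220 rose in SD_20d (0.65 ± 0.14, adjusted p = 0.00334). The count of calls fell to 17 in LD_20d without control replicate 1 (19.8%, against 17.2% of all loci). In LD_40d it fell to 18 without control replicate 3 (20.9% against 21.6%) and to 19 without LD_40d replicate 2 (22.1% against 19%). In SD_40d it fell to 18 without SD_40d replicate 2 (20.9% against 26.8%) and to 15 without SD_40d replicate 3 (17.4% against 28.1%). Both shares in SD_40d were smaller than that of all loci.

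The loci whose profile over 15 libraries lay nearest to each chosen locus were found by the root-mean-square difference of centred log2 CPM among 10246 candidates. They are a description of likeness, with no test. Nearest to PSBS were ribose-5-phosphate isomerase RPI3 (LOC110024323, 0.18), the hydrolase CMBL (LOC110027956, 0.19), the calcium-binding protein CML29 (LOC110030971, 0.20), CRTSO (0.20) and phosphoglycolate phosphatase PGP1A (LOC110027215, 0.20) of photorespiration. RPI3, of the Calvin cycle, held 155 ± 33.4 CPM in SD_20d and 292 ± 68.0 in LD_20d, then 411 ± 74.0 in SD_40d and 502 ± 51.8 in LD_40d. Nearest to ZEP, after the second ZEP locus, were FTSH1 (0.13), the cysteine protease ORYA (LOC110031801, 0.14), the ATP synthase gamma chain ATPG (LOC110030823, 0.14) and aspartate aminotransferase AAT5 (LOC110029155, 0.15).

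The loci nearest to ELIP1 lay farther off, and ELIP1 itself varied more within groups. They were the fatty acid elongation enzyme KCS5 (LOC110026642, 0.54), a mannose-binding lectin (LEC, LOC110022333, 0.56), the pentatricopeptide protein PP267 (LOC110032606, 0.58), the DNA photolyase UVR3 (LOC110031500, 0.59), which repairs ultraviolet damage, and the lipid-binding protein ORP4C (LOC110023595, 0.64). UVR3 held 13.1, 10.1 and 13.9 CPM in LD_20d and 10, 15.1 and 12.1 in LD_40d, against 5.92, 7.10 and 8.26 in SD_20d and 8.68, 5.58 and 5.6 in SD_40d. Its LD libraries all lay above its SD libraries, as with ELIP1. UVR3 was found by its likeness to ELIP1 in these same libraries, so nothing is read from this split. The lectin was far more abundant, at 3040 ± 869 CPM in LD_20d and 668 ± 185 in SD_20d.

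**Figure D5:**
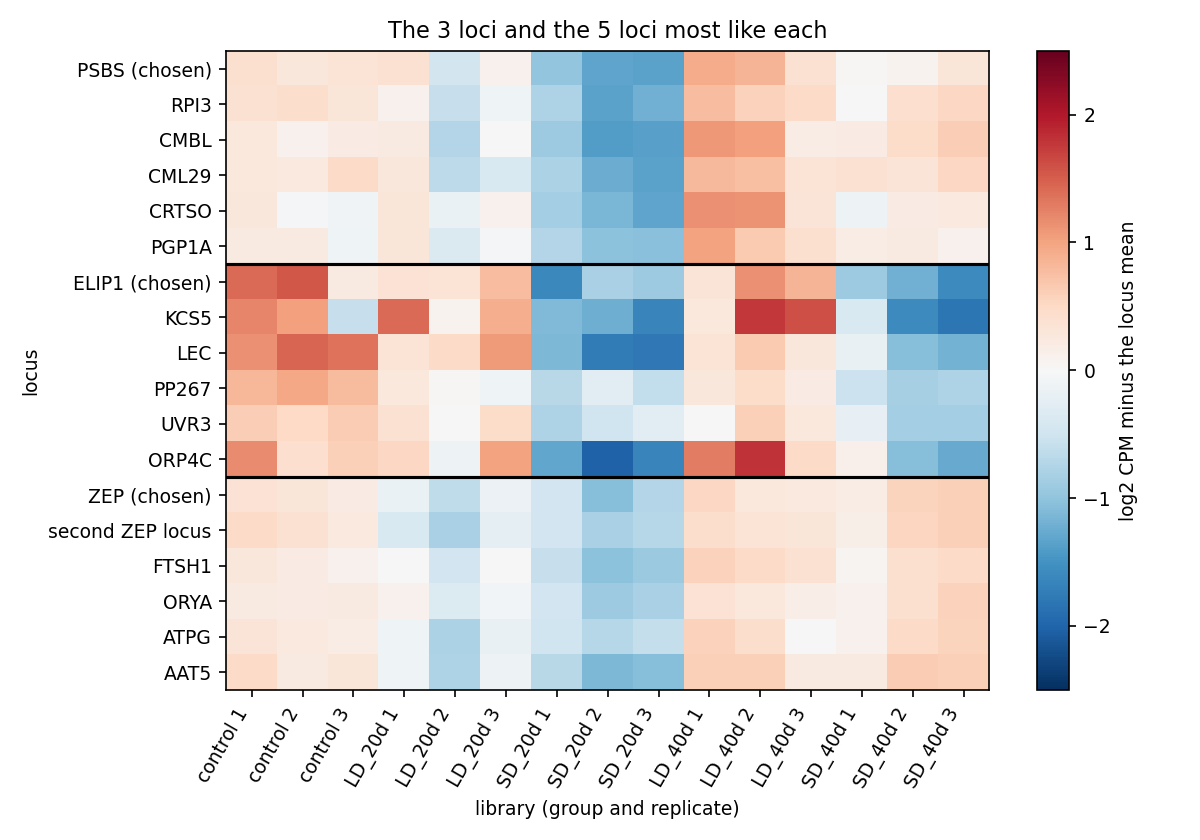
Log2 CPM minus the mean of the locus (colour scale) in 15 libraries (columns) for PSBS, ELIP1 and ZEP and for the 5 loci most like each (rows, in 3 blocks). The block of PSBS is lowest in SD_20d, that of ELIP1 is low in SD_20d and SD_40d, and that of ZEP is low in most libraries of LD_20d and in SD_20d.

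No listed locus overlapped PSBS, ELIP1 or ZEP. The closest neighbour was JMJ30 (LOC110024269), a histone demethylase linked to the circadian clock in Arabidopsis, which starts 85 bases from ELIP1 on the opposite strand, so that the pair points away from each other. JMJ30 held 19.9 ± 0.321 CPM in LD_20d and 17.4 ± 1.43 in SD_20d, then 18.4 ± 0.315 in LD_40d and 20.7 ± 3.44 in SD_40d. It differed between photoperiods by -0.19 ± 0.13 and 0.17 ± 0.13 at 20 and 40 days (adjusted p = 0.494 and 0.586), where ELIP1 differed by -1.57 and -2.01. On the other side of ELIP1 the aldo-keto reductase LOC110024237, 6962 bases away, had 1 count in all. The nearest protein-coding neighbour of PSBS (LOC110021536, 8499 bases away) differed between photoperiods by 0.25 ± 0.15 and 0.24 ± 0.15 (adjusted p = 0.436 and 0.481). Of the neighbours of ZEP, LOC110039064 (1719 bases away) had no count and the exocyst locus LOC110039062 (23692 bases away) had 23 counts in the control and 152 in SD_40d. That locus differed between photoperiods by 0.90 ± 0.66 and 1.12 ± 0.57 (adjusted p = 0.518 and 0.366).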

How the data were processed

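The authors deposited, per the file headers, read counts and FPKM for 21144 loci in 15 libraries. The deposited read counts are whole numbers per gene, and the deposited FPKM, scaled to gene length and library total, served only to compare levels between genes. Lengths and positions are those the same table lists. Tools named in the submitters' processing notes are DESeq 1.30.0, HTSeq 0.9.1, HISAT2 2.0.5 and cutadapt 1.15, with no role given. The genome build and strand setting are not given in the sources used here.

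A model with a mean per group was fitted to the counts of all 15 libraries by the quasi-likelihood method of edgeR 4.0.16 under R 4.3.3, after TMM scaling and its filter on low counts. The Benjamini-Hochberg method covered the p-values of 16700 loci, with calls made below an adjusted p of 0.05. Log2 CPM for profiles used a prior count of 2. A standard error is the absolute log2 change divided by the root of F. The fit was tested on simulated data. Alternatives were DESeq2 1.42.0, RLE scaling, no filter, a replicate block, fits to the compared groups alone and leaving out each library. Members and lists were chosen with earlier results of these data known. List loci were found by words in their descriptions, and wrong matches were removed from descriptions alone. The text names every PSBS, ELIP, ZEP or VDE locus, scaffold neighbours, the 5 nearest profiles (mean log2 CPM at least 2) and, per role, the smallest p (up to 3 calls between photoperiods at each age, 1 elsewhere). PGR5 and the profile values of UVR3, RPI3 and the lectin were picked after they were seen. Each library pools 3 plants, and p-values measure the spread between such pools.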

Additional observations from a re-analysis of the deposited data

Results flagged for a closer look

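LUT1 (LOC110030448), the lutein hydroxylase, had differences of opposite direction between photoperiods at the 2 ages, and none of them was called in edgeR with all libraries. Its CPM was 10.3, 10.5 and 10.7 in LD_20d and 12.8, 11.5 and 12.8 in SD_20d, so that every SD library was higher. At 40 days it was 14.0, 12.4 and 10.1 in LD_40d and 8.82, 8.05 and 7.52 in SD_40d, so that every SD library was lower. Of all tested loci, 27.3% did not overlap between photoperiods at 20 days and 15.1% at 40 days. For LUT1 the difference between the ages was -0.81 ± 0.21 on the log2 scale and did not pass the correction in edgeR (adjusted p = 0.385). Neither single difference was called in edgeR with all libraries (adjusted p = 0.443 at 20 days and 0.0994 at 40 days). The one at 40 days was called with DESeq2 and without SD_40d replicate 1 (lowest adjusted p over the alternatives 0.0239). A second locus matched to LUT1 (LOC110034113) did not reverse. Its mean CPM under SD and LD was 13.3 and 15.2 at 20 days, and 10.1 and 12.4 at 40 days.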

How the results depend on the processing

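Of 315 values of PSBS, ELIP1 and ZEP under the alternatives, 315 stayed within 1 SD of replicates, and over all alternatives SD minus LD ran from -1.45 to -1.05 (PSBS), -1.72 to -1.36 (ELIP1) and -0.59 to -0.30 (ZEP) at 20 days and from -0.75 to -0.49, -2.20 to -1.81 and 0.04 to 0.23 at 40 days. Counts of list calls depended more on the fit. Between photoperiods at 20 days the main count of 2 was 14 with DESeq2, 1 with the replicate block, 1 with only the compared groups and 0 to 19 without 1 library. At 40 days the count of 0 was 4 with DESeq2 and 0 to 6 without 1 library. From LD_20d to LD_40d the 12 were 21 with DESeq2, 4 with the block, 0 with only the compared groups and 0 to 30 without 1 library. Without 1 library, counts against the control were 17 to 23 in LD_20d, 18 to 25 in LD_40d and 15 to 34 in SD_40d (26, 30 and 32 with all). As shares these were 19.8% to 26.7% in LD_20d, where all loci in those fits gave 17.2% and 19.7%. They were 20.9% to 29.1% in LD_40d (all loci 21.6% and 26.7%) and 17.4% to 39.5% in SD_40d (all loci 28.1% and 46.2%). In the interaction the count was 0 with all libraries, 0 with DESeq2 (0.198% of all loci) and 0 to 1 without 1 library. The 1 call, without SD_40d replicate 1, was 1.16% of the list against 6.55% of all loci. At an unadjusted p under 0.05, 5 list loci passed (5.81%, against 11% of all tested loci). Both shares were below those of all loci. The cause was not tested. Correlations between same-numbered libraries, after the group means were removed, ran from -0.29 to 0.36, and 9 of 30 pairs were above 0.1. Those of LD_20d with SD_20d were 0.36, 0.25 and 0.07 in replicates 1, 2 and 3. Differently numbered pairs were not compared, so this does not settle whether replicate numbers pair the samples. Of 40 called values of named genes, 30 held in every fit without 1 library. Counts by role under the alternatives were added after the data were seen. All 810 values of named genes kept their direction where called. Depth limits the loci with few counts most, such as LOC110019108 with 6 counts in the control.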
